A study of Mus musculus with 4 samples.

Results

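A set of 6 genes of thyroid hormone action was followed in lung RNA-Seq of mice given vehicle, amiodarone, dabigatran or both drugs: the hormone receptors Thra and Thrb, their partner Rxra, and the hormone target genes Klf9, Hr and Thrsp. They were taken by gene symbol from the table of the whole series, and all 6 were found among its 17780 genes. The groups were male C57BL/6 mice (C57BL/6J in the methods) given oral vehicle, amiodarone (300 mg per kg), dabigatran (60 mg per kg) or the combination at these doses, 5 times per week for 4 weeks. According to the methods the mice were 6 to 7 weeks old when purchased and the RNA-Seq tissue dates from day 26, whereas the labels give 28 days of treatment. Each group is 1 library of lung polyA RNA, and whether a library holds 1 animal or a pool is not given in the sources used here. The labels name no allele and no treatment other than these in any group. Without replicates there was no test across animals and no p-value, and every ratio below compares 2 libraries and not the treatments. The 4 comparisons share libraries with each other, so they are set side by side and are not independent of each other.

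Thyroid hormone enters cells through membrane transporters, is activated or inactivated by deiodinases, and binds nuclear receptors encoded by Thra and Thrb. The receptors sit on DNA as partners of retinoid X receptors such as Rxra, where they recruit corepressors without hormone and coactivators with it. In the lung the hormone is known for its part in epithelial maturation and surfactant production. Klf9 encodes a zinc-finger transcription factor induced by thyroid hormone and also by glucocorticoids, Hr encodes the corepressor hairless, and Thrsp encodes a nuclear protein (Spot 14) tied to fatty acid synthesis in fat and liver. Amiodarone is an iodine-rich antiarrhythmic drug that resembles thyroid hormone in part of its structure and is known to disturb thyroid function, whereas dabigatran is an anticoagulant that inhibits thrombin. No hormone level was analysed here.

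Levels are given in FPKM (sequenced fragments divided by transcript length and library depth), which allows genes of different length to be compared. Estimated reads on genes summed to between 17498486 and 18903401 per library. Bars and intervals are exact 95% intervals from the reads behind a value, Poisson for a level and Clopper-Pearson for a ratio. They cover counting error only, since sequenced fragments are not independent molecules and no animal was repeated. A gene was called higher or lower when it differed at least 1.5-fold on the log2(FPKM + 1) scale and had at least 1 FPKM in either library, and this scale understates the change of low genes. The tissue label was met by its defining markers, with summed levels of alveolar type 2 markers between 24451 and 26217 FPKM and of alveolar type 1 markers between 3140 and 3398 FPKM. In whole lung, fewer cells of a type and less RNA per cell cannot be told apart.

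The promoters of Klf9, Thrb and Thrsp are shown because Klf9 had the highest ratio of the 6 genes with amiodarone, and Thrb and Thrsp were among those that were lower. Each window runs from 250 bases before to 50 bases after an annotated start, 5′ to 3′ on the gene's strand, from RefSeq on GRCm38.p6. Windows were found for 4 of the 6 genes, 6 windows in all, and those of Thra and Hr are named only. Capitals mark the letters AGGTCA, the half-site bound by thyroid hormone receptors and by other partners of RXR, or AGAACA, the half-site bound by the glucocorticoid receptor, each searched on both strands.
Klf9 promoter, chr19:23140976-23141275, plus strand: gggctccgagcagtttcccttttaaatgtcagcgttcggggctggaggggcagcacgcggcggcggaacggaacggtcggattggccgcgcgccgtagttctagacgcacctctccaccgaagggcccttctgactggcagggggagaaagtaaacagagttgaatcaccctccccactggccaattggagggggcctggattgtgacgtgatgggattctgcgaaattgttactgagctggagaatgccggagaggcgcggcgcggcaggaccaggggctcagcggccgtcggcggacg
Thrb promoter at the upstream start, chr14:17660710-17661009, plus strand: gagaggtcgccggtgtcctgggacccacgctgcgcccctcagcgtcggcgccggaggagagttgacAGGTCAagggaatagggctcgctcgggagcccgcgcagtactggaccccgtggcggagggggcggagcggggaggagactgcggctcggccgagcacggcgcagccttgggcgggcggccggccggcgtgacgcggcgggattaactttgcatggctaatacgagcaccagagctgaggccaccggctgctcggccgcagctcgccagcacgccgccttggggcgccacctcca
Thrb promoter at the downstream start, chr14:17981394-17981693, plus strand: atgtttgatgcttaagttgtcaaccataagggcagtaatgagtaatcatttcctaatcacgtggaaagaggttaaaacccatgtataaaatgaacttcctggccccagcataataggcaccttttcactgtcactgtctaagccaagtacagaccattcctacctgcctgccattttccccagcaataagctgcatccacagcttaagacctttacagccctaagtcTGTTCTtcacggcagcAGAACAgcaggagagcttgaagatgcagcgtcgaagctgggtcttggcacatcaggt
Thrsp promoter, chr7:97417501-97417800, minus strand: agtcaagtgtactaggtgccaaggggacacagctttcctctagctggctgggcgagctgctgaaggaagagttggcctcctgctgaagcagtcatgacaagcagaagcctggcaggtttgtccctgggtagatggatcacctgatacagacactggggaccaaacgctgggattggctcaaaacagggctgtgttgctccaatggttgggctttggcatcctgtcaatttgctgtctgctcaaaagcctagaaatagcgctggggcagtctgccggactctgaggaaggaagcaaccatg
The upstream Thrb window held 1 AGGTCA, 184 bases before the start, and the downstream Thrb window held AGAACA 7 bases before the start and again on the other strand 23 bases before it. Neither half-site was in the Klf9 or Thrsp window. Of the Rxra windows, 1 held AGGTCA at 2 places and the other held none. Among all 32817 promoter windows of the table, AGGTCA was in 16.3% and AGAACA in 19%. A direct repeat of the half-site with a 4-base gap (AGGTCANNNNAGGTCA), which contains AGGTCA, was in 0.0152% of all windows and in none of these. These are matches of letters only.

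Positions are on GRCm38.p6. In the vehicle library the highest level of the 6 genes was that of Thra (chromosome 11, 98740776 to 98769006), at 64.8 FPKM, followed by Klf9 at 39.2 and Rxra at 29.1. Thrsp at 6.12, Hr at 4.24 and Thrb at 3.39 FPKM were far below them, and the counting intervals of these 6 vehicle levels did not overlap between neighbours in that order. The dabigatran library had the same order, although the intervals of Thrsp (4.10 to 6.20 FPKM) and Hr (4.13 to 4.99 FPKM) overlapped there. In both libraries with amiodarone Klf9 stood above Thra. At the lower end, Hr and Thrb could not be ordered with amiodarone (1.76 to 2.33 and 1.72 to 2.25 FPKM), and with both drugs Hr (1.56 to 2.09 FPKM) was below Thrb (2.23 to 2.81 FPKM).

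**Figure D1:**
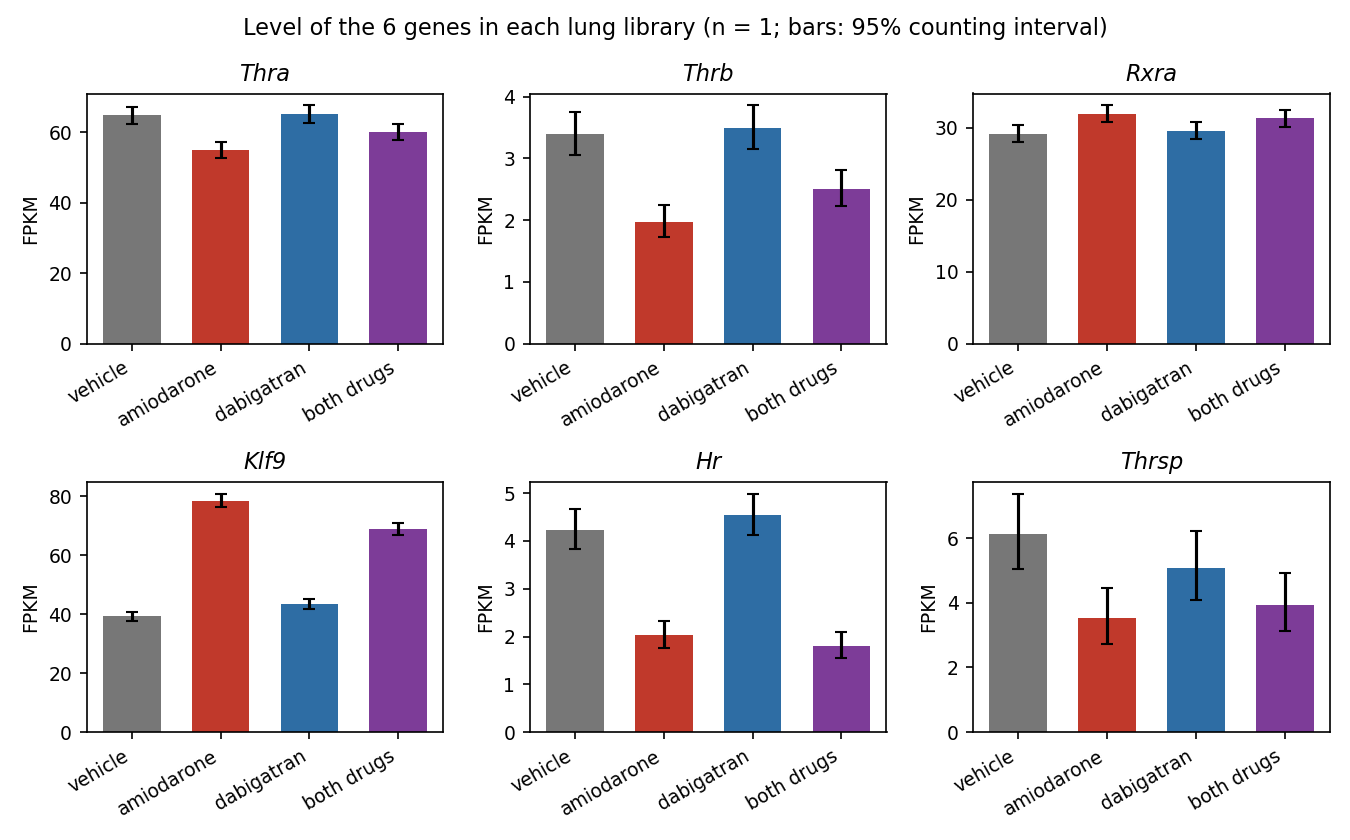
Level of each gene in FPKM (vertical axes, each from 0) in the vehicle, amiodarone, dabigatran and both-drug libraries, 1 library each, with bars for the 95% counting interval. Klf9 was at 78.5 and 68.8 FPKM in the libraries with amiodarone and at 39.2 and 43.3 FPKM in those without, whereas Hr was at 2.03 and 1.81 FPKM with amiodarone and at 4.24 and 4.54 FPKM without.

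Of the receptors, Thrb differed most with amiodarone. Thrb lies on chromosome 14 from 17659225 to 18040097 and encodes the receptor isoforms that govern hormone feedback and much of the response in liver. Its level was 3.39 FPKM with vehicle (368 reads), 1.97 with amiodarone (221 reads), 3.49 after dabigatran (382 reads) and 2.51 with both drugs (295 reads). Both libraries with amiodarone were thus lower than both without it. The ratio of amiodarone to vehicle was 0.581 (0.490 to 0.689), and that of both drugs to dabigatran was 0.719 (0.616 to 0.839). Between the amiodarone libraries the one with dabigatran was higher, at a ratio of 1.27 (1.07 to 1.52). On the log2(FPKM + 1) scale the difference between amiodarone and vehicle was -0.56, just short of the log2 of 1.5, and Thrb was not called in any of the 4 comparisons. It was called lower between amiodarone and vehicle with TMM scaling, with reads over the library total and with a pseudocount of 0.1. TMM and the library total were applied to reads not divided by transcript length, so those calls do not show an effect of scaling alone. Median-ratio scaling, which stays in FPKM, did not call Thrb.

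Thra, which encodes the receptor form that prevails in heart, bone and brain, varied less. It had 64.8 FPKM with vehicle, 54.9 with amiodarone, 65.1 after dabigatran and 59.9 with both drugs, so the libraries with amiodarone were again the lower ones. Its ratio of amiodarone to vehicle was 0.847 (0.802 to 0.895), that of both drugs to dabigatran 0.920 (0.873 to 0.971), and that of both drugs to amiodarone 1.09 (1.03 to 1.15). The gene also gives a splice form that does not bind hormone, which a table per gene cannot separate.

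The Thra value is uncertain for a further reason. The clock gene Nr1d1 lies on the opposite strand, and their annotated exons overlap by 263 bases on chromosome 11 (98768157 to 98768419, GENCODE M21), in 1 of the 2 basic Thra transcripts. The estimated reads of Thra and of Nr1d1 were whole numbers in none of the 4 libraries (within 0.005), while those of the other 5 members were whole in all 4. Whether strand was used in counting is not given in the sources used here. Nr1d1 itself had 175 FPKM with vehicle, 135 with amiodarone, 177 after dabigatran and 116 with both drugs, the last of which was its lowest value but not that of Thra. Its part in the Thra values was not tested.

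Rxra, the shared partner, on chromosome 2 from 27676445 to 27763319, had the narrowest range. It stood at 29.1 FPKM with vehicle, 31.9 with amiodarone, 29.6 after dabigatran and 31.3 with both drugs. The ratio of amiodarone to vehicle was 1.10 (1.04 to 1.16), above 1 where those of Thra and Thrb were below it. Dabigatran against vehicle gave 1.02 (0.961 to 1.08) and both drugs against amiodarone 0.981 (0.931 to 1.03).

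Among the targets, Klf9 was higher and Hr and Thrsp were lower with amiodarone, although all are known as genes that thyroid hormone induces. Klf9, on chromosome 19 from 23141226 to 23168129, had 39.2 FPKM with vehicle, 78.5 with amiodarone, 43.3 after dabigatran and 68.8 with both drugs, from 2206 to 4725 reads. The ratio of amiodarone to vehicle was 2.0 (1.90 to 2.11), and that of both drugs to dabigatran was 1.59 (1.51 to 1.67). The level with both drugs was lower than with amiodarone alone, at a ratio of 0.876 (0.840 to 0.914), and the level with dabigatran was higher than with vehicle, at 1.10 (1.04 to 1.17).

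Hr, on chromosome 14 from 70554056 to 70573548, differed in the opposite direction with amiodarone and was at a much lower level. It had 4.24 FPKM with vehicle (404 reads), 2.03 with amiodarone (209 reads), 4.54 after dabigatran (440 reads) and 1.81 with both drugs (186 reads). The ratios were 0.479 (0.403 to 0.567) for amiodarone against vehicle and 0.399 (0.334 to 0.474) for both drugs against dabigatran. Dabigatran made a difference within counting error to either, at 1.07 (0.933 to 1.23) against vehicle and 0.892 (0.728 to 1.09) when it was added to amiodarone.

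Thrsp, on chromosome 7 from 97412933 to 97417550, had the fewest reads of the 6 genes, from 69 to 112. Its level was 6.12 FPKM with vehicle, 3.52 with amiodarone, 5.07 after dabigatran and 3.94 with both drugs. The ratio of amiodarone to vehicle was 0.575 (0.420 to 0.783). Both drugs against dabigatran gave 0.777 (0.568 to 1.06), so that at this depth a difference was not detectable there.

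**Figure D2:**
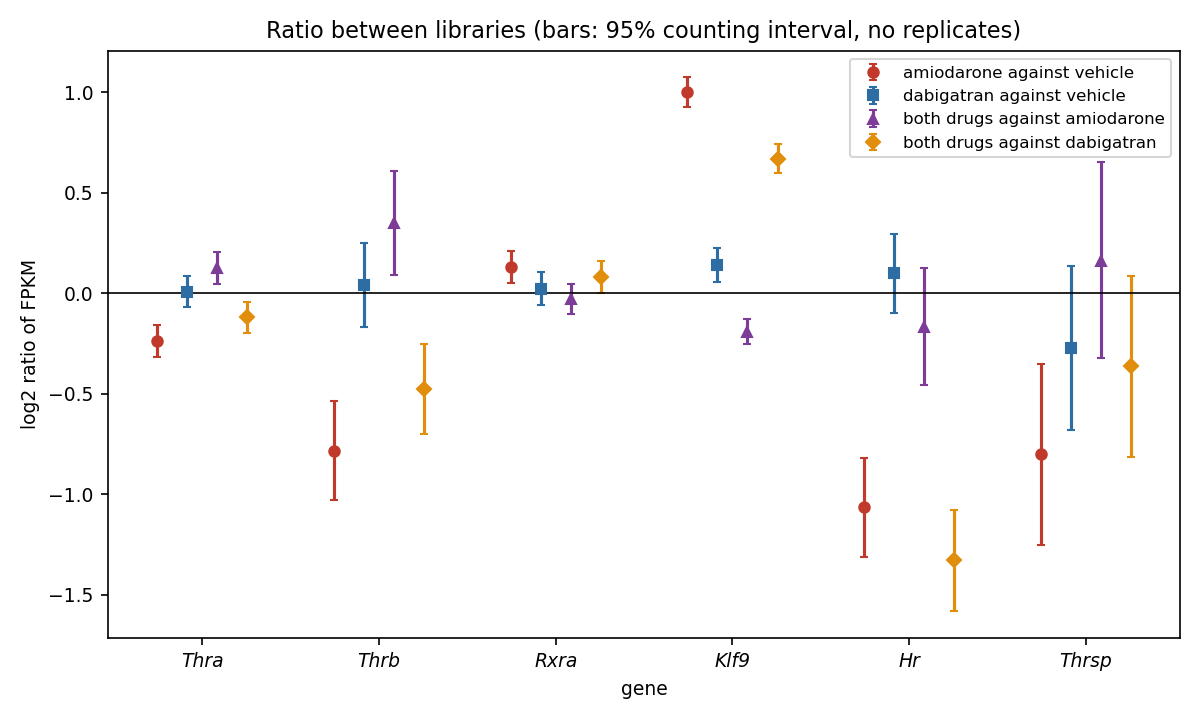
Log2 ratio of FPKM (vertical axis) for each gene (horizontal axis) in the 4 comparisons, with 95% counting intervals and no replicates. Klf9 lies above 0 and Hr below 0 in both comparisons that add amiodarone, and the points for dabigatran against vehicle run from -0.27 (Thrsp) to 0.14 (Klf9).

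Between amiodarone and vehicle 1 of the 6 genes was called higher (Klf9) and 2 lower (Hr and Thrsp), where over all 13402 genes tested 4.34% were called higher and 3.93% lower. On the log2(FPKM + 1) scale the 6 genes had a median difference of -0.40 and all genes one of -0.05. All 6 differed beyond the counting interval, 2 higher and 4 lower, but so did 49.7% of all genes. Between both drugs and dabigatran Klf9 was called higher and Hr lower, against 3.25% and 2.04% of 13379 genes, and 5 of the 6 differed beyond counting error, against 43.0% of all genes. The members' median was -0.21 there and that of all genes -0.01.

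None of the 6 was called in the comparisons that add dabigatran. For dabigatran against vehicle the calls over all 13373 genes were 0.449% higher and 0.508% lower, and Klf9 was the 1 member beyond counting error, against 28.6% of all genes. For both drugs against amiodarone 1.06% of 13261 genes were called higher and 1.22% lower. There Thra and Thrb were higher and Klf9 was lower beyond counting error, 3 of 6 against 36.2% of all genes. The medians of the 6 genes were 0.03 and 0.05 in these comparisons, and those of all genes 0.00 and 0.03.

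Few cofactors of the receptors passed the fold for a call. Of 14 receptor partners and coregulators (Rxrb, Rxrg, the corepressors with Hdac3, and the coactivators), none was called between amiodarone and vehicle, 7 were above and 7 below 0, and the median was -0.01. The histone deacetylase gene Hdac3 had 26.4 FPKM with vehicle and 21.0 with amiodarone, a ratio of 0.795 (0.721 to 0.877), and the coactivator gene Ep300 had 13.9 and 16.3, a ratio of 1.17 (1.10 to 1.24). Rxrg, a retinoid X receptor found mainly in muscle and brain, had 1.91 FPKM with vehicle, 0.97 with amiodarone, 1.63 after dabigatran and 0.59 with both drugs, and was the single gene of the list called in any comparison, lower in both drugs against dabigatran. None of the list was called with dabigatran against vehicle or with both drugs against amiodarone.

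Genes of hormone entry, binding and metabolism were at low levels in lung for the most part, and 7 of 11 could be tested. The outer-ring deiodinase Dio2, which activates the hormone, had between 0.08 and 0.18 FPKM, and the inactivating deiodinase Dio3 had between 0.03 and 0.12. Dio1, a deiodinase abundant in liver and kidney, had 1.05 FPKM with vehicle, 0.49 with amiodarone, 0.97 after dabigatran and 1.29 with both drugs, from 30 and 15 reads in the first pair. Its ratio of both drugs to amiodarone was 2.63 (1.42 to 5.13), the 1 call of the list in that comparison. Slc7a5, which carries amino acids and thyroid hormone, had 3.33, 5.39, 3.25 and 6.30 FPKM in the order vehicle, amiodarone, dabigatran and both drugs, and was called higher in both drugs against dabigatran (1.94, 1.63 to 2.31). Sult1a1, a sulfotransferase whose substrates include iodothyronines, was the 1 gene of the list called between amiodarone and vehicle. It had 38.8 FPKM with vehicle, 89.7 with amiodarone, 36.6 after dabigatran and 70.0 with both drugs, a ratio of 2.31 (2.13 to 2.51) for amiodarone to vehicle. Its estimated reads were not whole numbers, so part of them was shared with other genes. The list's median was 0.11 for amiodarone against vehicle, or 0.56 with a minimum of 5 FPKM, and 0.22 for both drugs against dabigatran, or 0.78 with that minimum.

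Of the other genes that thyroid hormone is known to induce, 16 of 19 could be tested, and they differed in both directions. Between amiodarone and vehicle 1 was called higher and 2 lower, 11 of the 16 lay below 0, and the median was -0.32. Bcl3, an IκB family protein of the NF-κB pathway, had 16.7 FPKM with vehicle, 29.1 with amiodarone, 12.5 after dabigatran and 21.6 with both drugs. Atp2a1, the calcium pump of fast skeletal muscle, (3.56, 1.72, 3.96 and 1.29 FPKM in the same order) was lower in both libraries with amiodarone. Nrgn, a calmodulin-binding protein of neurons, had 37.9, 20.8, 34.2 and 36.3 FPKM, so it was low in the amiodarone library alone and was called higher in both drugs against amiodarone (1.74, 1.56 to 1.95). For both drugs against dabigatran the list again had 1 higher call and 2 lower, with a median of -0.21, and for dabigatran against vehicle it had none, with a median of -0.02. For both drugs against amiodarone the median was -0.01.

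**Figure D3:**
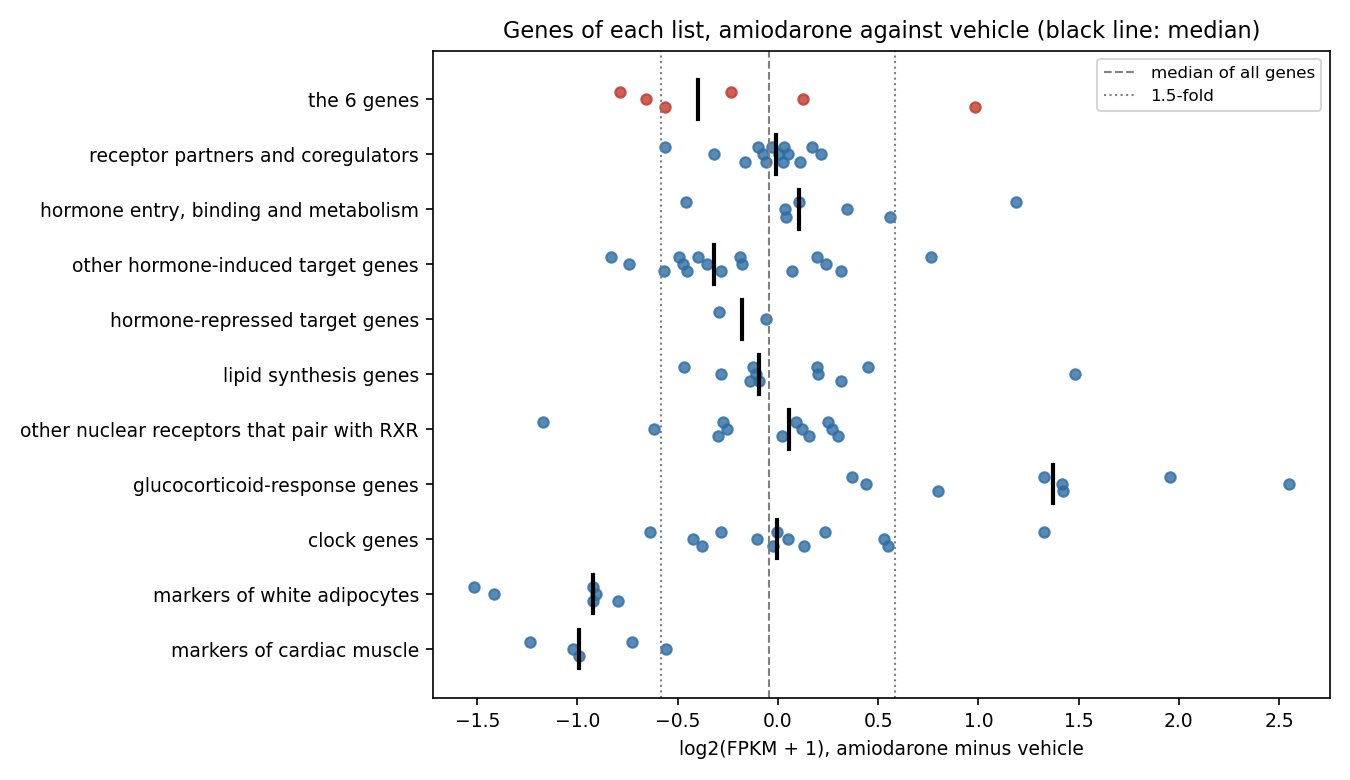
Each point is a gene with at least 1 FPKM in either library, placed by its log2(FPKM + 1) difference between amiodarone and vehicle (horizontal axis) in the row of its list, with a black line for the list's median. The glucocorticoid-response genes all lie above 0 (median 1.37) and the adipocyte and cardiac muscle markers all below 0 (medians -0.92 and -0.99), while coregulators lie around 0.

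Of the 4 genes listed as repressed by the hormone, 2 could be tested. Tshb, the hormone-specific chain of thyrotropin, was listed at 1.80 to 2.43 FPKM with estimated reads that were not whole numbers. Myh7, the slow myosin heavy chain, had 3.81 FPKM with vehicle, 3.61 with amiodarone, 4.18 after dabigatran and 5.05 with both drugs. Its estimated reads, from 400.65 to 575.65, were not whole numbers either. Neither gene was called in any comparison.

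Among lipid synthesis genes, the programme in which Thrsp acts, the 1 call was in the direction opposite to Thrsp. Of 11 tested genes 1 was called higher between amiodarone and vehicle and none lower, and the median was -0.09, or 0.19 with a minimum of 5 FPKM. That gene was Scd1, a fatty acid desaturase, with 314 FPKM with vehicle, 880 with amiodarone, 376 after dabigatran and 1075 with both drugs, a ratio of 2.80 (2.76 to 2.84), and its reads were shared with other genes in part. Its paralogue Scd2 had 179, 245, 190 and 248 FPKM in that order. Mlxipl, a glucose-sensing lipogenic transcription factor, was lower with amiodarone like Thrsp, at 1.33 FPKM against 2.22 with vehicle, a ratio of 0.599 (0.447 to 0.8), without reaching the fold for a call. With both drugs against dabigatran 1 of 11 was called, Scd1 again, with a median of 0.26. Dabigatran against vehicle gave no call and a median of 0.02, and both drugs against amiodarone no call and a median of 0.20. Fasn, Acaca and Me1 stand both here and among the hormone-induced targets.

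Receptors that share RXR as a partner with Thra and Thrb gave 2 lower calls of 12 between amiodarone and vehicle, with a median of 0.06. Nr4a1, an orphan receptor and immediate early gene, had 81.4 FPKM with vehicle, 35.5 with amiodarone, 115 after dabigatran and 15.0 with both drugs. It was the gene of this list with the widest range, and its ratio of both drugs to dabigatran was 0.13 (0.12 to 0.141). Rarb, a retinoic acid receptor that its own ligand induces, had 4.88, 2.83, 3.88 and 3.49 FPKM. Nr1h3, an oxysterol receptor strong in macrophages, had 24.9, 30.9, 23.5 and 35.1 FPKM and was not called.

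Beside the Klf9 values, genes that glucocorticoids induce moved with it, except between dabigatran and vehicle. All 8 genes of that list were above 0 between amiodarone and vehicle, 6 were called higher, and the median was 1.37. Their summed level was 420 FPKM with vehicle, 796 with amiodarone, 390 after dabigatran and 650 with both drugs. Fkbp5, a co-chaperone of steroid receptors, had 4.50 FPKM with vehicle, 31.2 with amiodarone, 4.51 after dabigatran and 20.7 with both drugs. Zbtb16, a zinc-finger repressor, had 5.46, 24.1, 7.32 and 18.9 FPKM, and Cdkn1a, a cell cycle inhibitor, had 34.5, 94, 35.1 and 62.2 FPKM. As with Klf9, all 8 were lower with both drugs than with amiodarone (median -0.32, 1 called lower) and all 8 higher with both drugs than with dabigatran (median 0.91, 6 called higher). Between dabigatran and vehicle, where Klf9 was higher, 5 of the 8 genes lay above 0 and 3 below, and the list's median was 0.01. None of its genes was at 0 reads in any library, and the part of glucocorticoid action in the Klf9 values was not tested.

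Fat markers stood beside the Thrsp values. Of 7 white adipocyte markers 6 could be tested, and all 6 were called lower with amiodarone than with vehicle, with a median of -0.92. Their summed level was 118 FPKM with vehicle, 42.7 with amiodarone, 176 after dabigatran and 75.1 with both drugs, with no marker at 0 reads. Cfd (adipsin) had 62.8, 21.3, 106 and 41.5 FPKM in that order, and Car3, a carbonic anhydrase of fat and muscle, had 34.2, 12.2, 45.1 and 18.7 FPKM. With dabigatran alone the marker sum was above that of vehicle, and 2 of the 6 markers were called higher. Thrsp was at 5.07 FPKM against 6.12 there, a difference within counting error (0.828, 0.623 to 1.1). Between both drugs and dabigatran 4 of 6 were called lower, and between both drugs and amiodarone 2 of 5 were called higher. The part of adipose tissue in the Thrsp values was not tested.

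**Figure D4:**
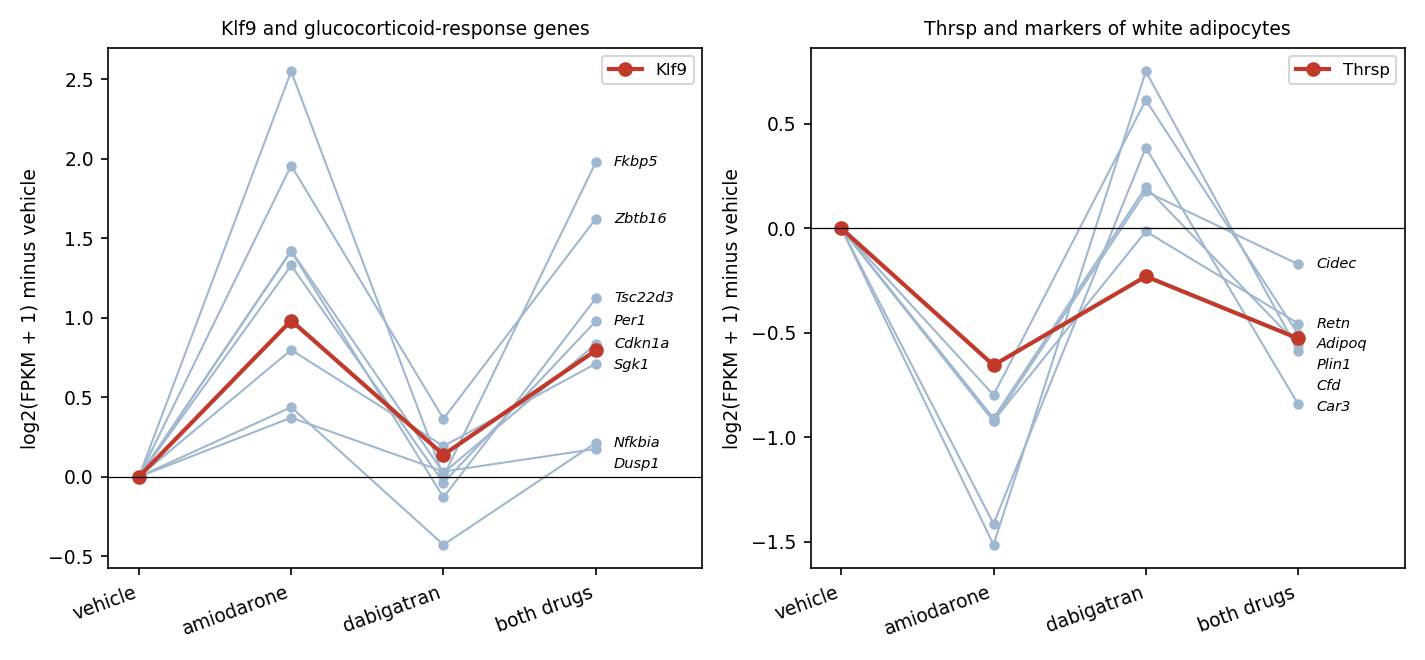
Difference from the vehicle library in log2(FPKM + 1) (vertical axis) in each library (horizontal axis) for Klf9 with the glucocorticoid-response genes (left) and for Thrsp with the tested white adipocyte markers (right), with lines joining the values of 1 gene. Klf9 and all 8 glucocorticoid-response genes were higher with amiodarone, and Thrsp and all 6 markers were lower. With dabigatran alone 5 of the 6 markers stood above vehicle, and Thrsp differed from vehicle within counting error (0.828, 0.623 to 1.1).

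Markers of cardiac muscle stood beside several of the hormone-induced targets. Cardiac muscle markers (Tnnt2, Tnni3, Myl7, Actc1 and Nppa, a list added after values had been seen) summed to 1355 FPKM with vehicle, 684 with amiodarone, 946 after dabigatran and 649 with both drugs, with no marker at 0. Between amiodarone and vehicle 4 of the 5 were called lower, and between dabigatran and vehicle 3 of 5. The hormone-induced cardiac genes Myh6 and Atp2a2, chosen here after their values were seen, were highest with vehicle as well. Myh6, the fast cardiac myosin, had 200 FPKM with vehicle, 135 with amiodarone, 139 after dabigatran and 105 with both drugs. Atp2a2, the cardiac calcium pump, had 232, 166, 181 and 152 FPKM in that order. Myh7, listed as repressed by the hormone, was instead highest with both drugs, at 3.81, 3.61, 4.18 and 5.05 FPKM. The estimated reads of Myh6 and Myh7 were not whole numbers, so part of them was shared with other genes. With dabigatran against vehicle, Hr was at 4.54 against 4.24 FPKM, Thrb at 3.49 against 3.39 and Thrsp at 5.07 against 6.12. Each of these differences was within counting error, as was that of the marker Nppa (0.956, 0.879 to 1.04). Where the cardiac muscle RNA came from, and its part in all these values, was not tested.

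Markers of white blood cells also differed between the libraries. Summed macrophage markers were at 180 FPKM with vehicle, 899 with amiodarone, 205 after dabigatran and 1133 with both drugs, with 6 of 7 called higher with amiodarone and none at 0. Chil3 alone was the largest part of each sum, at 90.3, 731, 113 and 940 FPKM in that order. Cd68 had 28.6, 77.2, 25.8 and 89.2 FPKM, and Csf1r was not called between amiodarone and vehicle (1.05, 0.997 to 1.11). Neutrophil markers summed to 80.9, 551, 60.7 and 389 FPKM, with all 6 called higher. The sum of the fibroblast markers was lower in the libraries with amiodarone (311 and 348 FPKM) than in those without (438 and 505 FPKM), with 1 of 5 called lower against vehicle, Col3a1. Their marker Pdgfra, named here with its values known, was an exception to that split, at 42.0 FPKM with vehicle, 39.1 with amiodarone, 43.5 after dabigatran and 45.1 with both drugs. No marker of alveolar type 1 or type 2 cells was called in any comparison. The 5 endothelial markers gave no call between amiodarone and vehicle, with a median of 0.10, but between both drugs and dabigatran all 5 were below 0, with a median of -0.34 and 1 called lower (Kdr). The part of these cells in the levels of the 6 genes was not tested. Markers of thyroid follicular cells, of which 4 of 5 were listed, summed to between 0.43 and 0.78 FPKM, so the defining genes of thyroid tissue were near 0 in all 4 libraries.

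Clock genes were counted because Nr1d1 lies opposite Thra and because Klf9 is known to vary over the day. Of 13 clock genes 1 was called higher and 1 lower between amiodarone and vehicle, with a median of 0.00. The higher gene was Per1, also a glucocorticoid-response gene, with 23.2 FPKM with vehicle, 59.7 with amiodarone, 22.6 after dabigatran and 46.6 with both drugs. The lower gene was Dbp, a clock output transcription factor, with 140, 89.2, 116 and 74.2 FPKM, and Per2 had 8.34, 12.7, 5.97 and 9.93 FPKM. Dabigatran against vehicle gave no call and a median of -0.14, both drugs against amiodarone no call and -0.22, and both drugs against dabigatran 3 higher calls, 2 lower and -0.10. The hour of tissue collection per library is not given in the sources used here.

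Profiles over the 4 libraries were compared with those of 12726 genes that had at least 1 FPKM in each, as the root mean square difference of log2(FPKM + 1) values after each gene was centred on its own mean. The genes closest to Klf9 were Rasd2 (0.015), Acer2 (0.032) and Jade2 (0.036), and 49 genes lay within 0.1. Rasd2, a small GTPase, had 2.69 FPKM with vehicle, 6.46 with amiodarone, 3.17 after dabigatran and 5.46 with both drugs. Hr had fewer close genes, 13 within 0.1, led by Cdc42bpg (0.039), Atp2a1 (0.056) and Plekha6 (0.058). Cdc42bpg, a protein kinase, had 111, 68.8, 120 and 61.4 FPKM. Thrb had 498 genes within 0.1, with Hs2st1 (0.017), Ago1 (0.018) and Pnkd (0.020) first, and Thrsp had 356, with Ifitm5 (0.020) and Tmem38a (0.021) among the closest. With 4 points per gene many profiles are alike, and no likeness was looked for with Thra or Rxra, whose log2(FPKM + 1) values spanned 0.24 and 0.13.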

How the data were processed

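The authors sequenced lung polyA RNA on the DNBseq platform, 1 library per group, used HISAT 2.0.4 for mapping to the genome (GRCm38.p6) and Bowtie2 2.2.5 for mapping to genes, and took expression estimates from RSEM 1.2.8 (methods and submitters' processing notes). The deposited table holds estimated counts (RSEM expected counts) and a normalized value per library. The deposited normalized values were read as FPKM on a linear scale, a unit inferred from the values because the sources used here do not state it. Its 8 columns of pairwise means were left out.

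Groups came from the labels. Ratios are of FPKM without a pseudocount, with exact 95% Clopper-Pearson intervals from the estimated reads rounded to whole numbers. Calls used log2(FPKM + 1), a fold of 1.5 and at least 1 FPKM in either library. Total estimated reads were 17498486 (vehicle), 18725403 (amiodarone), 17752873 (dabigatran) and 18903401 (amiodarone + dabigatran). Named genes are the 6 members, up to 3 genes per list with the largest difference between amiodarone and vehicle, Nr1d1, and the 3 genes nearest in profile to each member that spanned at least 1.5-fold. Other names were picked with their values known, and some results are not reported here. The 6 genes and the lists were chosen with earlier results of these data known. Alternatives were scaling by the median ratio, by TMM (edgeR 4.0.16) and by library total, a pseudocount of 0.1, a minimum of 5 FPKM or none, and a fold of 2. TMM and library total were applied to reads not divided by transcript length, and median-ratio scaling to FPKM. Coordinates and promoters came from RefSeq for GRCm38.p6 and exon overlap from GENCODE M21. Python 3.11.15, pandas 2.3.3 and scipy 1.17.1 were used. The calling was tested on simulated counts with Poisson error only. No spread between animals and no change as small as 1.5-fold was simulated there.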

Additional observations from a re-analysis of the deposited data

Results flagged for a closer look

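Klf9 differed with dabigatran in opposite directions without and with amiodarone, and each difference went beyond counting error. The ratio of dabigatran to vehicle was 1.10 (39.2 against 43.3 FPKM, vehicle first), and the ratio of both drugs to amiodarone was 0.876 (78.5 against 68.8 FPKM, amiodarone first). With 1 library on each side the difference between these ratios was not tested. Glucocorticoid-response genes had medians of 0.01 and -0.32 on the log2(FPKM + 1) scale in the same comparisons, and their part in the Klf9 values was not tested.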

How the results depend on the processing

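No paired analysis was possible because each group is 1 library, and for the same reason no replicate could be left out. The ratios of the 6 genes kept their direction in every scaling tried, the log2 ratio of amiodarone to vehicle ranging from 1.0 to 1.06 for Klf9, from -1.05 to -0.99 for Hr and from -0.83 to -0.73 for Thrb. TMM scaling, reads over the library total and a pseudocount of 0.1 each added Thrb to the lower members between amiodarone and vehicle, making 3. TMM and the library total were applied to reads without division by transcript length, so the unit under the pseudocount also changed. Median-ratio scaling, which stays in FPKM, left 2 lower members. The added Thrb call is therefore not shown to come from scaling. At 2-fold no member was called between amiodarone and vehicle (0 higher, 0 lower) or between both drugs and dabigatran (0 and 0). With a minimum of 5 FPKM, Hr was no longer counted, which left 1 lower member between amiodarone and vehicle and 0 between both drugs and dabigatran.

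Over all genes, in the order amiodarone against vehicle, dabigatran against vehicle, both drugs against amiodarone and both drugs against dabigatran, a 2-fold threshold gave 250, 12, 25 and 154 higher and 73, 9, 38 and 58 lower genes. Reads over the library total gave 827 lower, 120 higher and 115 lower, 231 higher, and 506 lower genes, and moved the higher share in the last comparison from 61.4% to 51.4%. A pseudocount of 0.1 gave 910 lower, 172 and 184, 300 and 260, and 549 lower. A minimum of 5 FPKM gave 336 lower, 27 and 24, and 73 higher. TMM gave 114 and 115 in the second, 254 lower in the third and 457 lower in the last. As TMM and the library total also change the unit from FPKM, their counts here and medians below do not isolate scaling. The other 29 counts over all genes stayed within 1.5 times. Of the medians 384 stayed within a set limit and 22 moved beyond it. The limit was a gene's typical counting error for the lists and 0.1 in log2 for all genes. With a minimum of 5 FPKM the median for amiodarone against vehicle was 0.56 for hormone entry genes and 0.19 for lipid synthesis genes (-0.10 to -0.04 in the other settings), and for both drugs against dabigatran 0.78 and 0.36, the latter being 0.18 without a filter or with reads over the library total. For amiodarone against vehicle, macrophage markers had medians of 1.23 by TMM, 1.18 by library total and 1.35 with a pseudocount of 0.1, which gave neutrophil markers 2.63. The median ratio and TMM gave type 2 markers 0.13 and 0.14, type 1 markers 0.14 and 0.15 and endothelial markers 0.15 and 0.16, and TMM gave fibroblast markers -0.35. For both drugs against amiodarone the same scalings gave type 2 markers 0.02 and 0.02 and endothelial markers -0.25 and -0.26, and for both drugs against dabigatran TMM gave type 2 markers 0.20.

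Depth limits Thrsp (69 to 112 reads), and genes with still fewer reads such as Rxrg (20 to 56) and Dio1 (15 to 40). No spread between animals is known, so none of the differences is shown to exceed it, and the strand of reads between Thra and Nr1d1 is unknown.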
